A study of Mus musculus with 2 samples.

Results

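The colony-stimulating factors (CSFs) and their receptors are the secreted proteins and surface receptors on which macrophages, granulocytes and their precursors depend. The genes described here were taken by symbol. They were the ligands Csf1, Il34 and Csf3 and the receptors or receptor subunits Csf1r, Csf2ra, Csf2rb, Csf2rb2 and Csf3r, which makes 8 of the 24346 symbols in the files, and all 8 were found. RNA was measured in whole omentum, the fatty abdominal sheet that holds the lymphoid clusters called milky spots. Each genotype, WT and Postn-DTR, gave 1 library, and both were made 5 days after an intraperitoneal injection of diphtheria toxin (DT). Postn-DTR mice were Postn Dtr/+ heterozygotes made by CRISPR in C57BL/6 zygotes. A toxin receptor cassette (a mutated human HB-EGF) sits in the first coding exon of one Postn copy, so that DT kills the cells in which Postn is active. The study used the line to remove Aldh1a2+ fibroblastic reticular cells (FRCs), the stromal cells of the milky spots.

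The model has limits that touch every value below. One Postn copy was interrupted in the Postn-DTR mice, Postn is also active in mesenchymal cells of other organs, and the age, the sex and the number of animals behind each library are not given in the sources used here. Without a second library per genotype there was no replicate check of any difference, and no test was possible. In whole tissue, fewer cells of a type and less RNA per cell cannot be told apart.

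CSF1 and IL-34 both bind CSF1R, a receptor tyrosine kinase that keeps monocytes and most tissue macrophages alive. GM-CSF, the product of Csf2, acts through the alpha chain CSF2RA joined to a beta chain, and in mice a close relative of that beta chain, encoded by Csf2rb2, serves the IL-3 receptor. G-CSF, the product of Csf3, acts through CSF3R on neutrophils and their precursors. In adipose and lymphoid stroma, CSF1 is made mainly by mesenchymal cells, whereas G-CSF is usually scarce until stromal or myeloid cells meet an inflammatory signal.

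Expression was given in FPKM, a fragment count divided by transcript length and by the mapped fragments of the library. A change is the log2(FPKM + 1) of the Postn-DTR library less that of the WT library, and fold values for single genes are ratios of FPKM with nothing added. Where a pair of values is given for a gene, the WT value comes first. A gene was called higher or lower when its change reached 2-fold, among the 13127 genes whose FPKM averaged 1 or more. All 8 CSF genes were in that group, but Csf3 entered it only through its level in the Postn-DTR library. Csf3 and Csf3r were called higher, Il34 was called lower, and the other 5 stayed within 2-fold. Over all genes compared, 3.88% were called higher and 3.12% lower. The median change of the 8 genes was 0.40, beside 0.018 for all genes compared. Both medians hold for FPKM as deposited. Under the equal totals described below, the middle values of the 8 changes were 0.0041 (Csf2rb) and 0.12 (Csf1r).

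**Figure D1:**
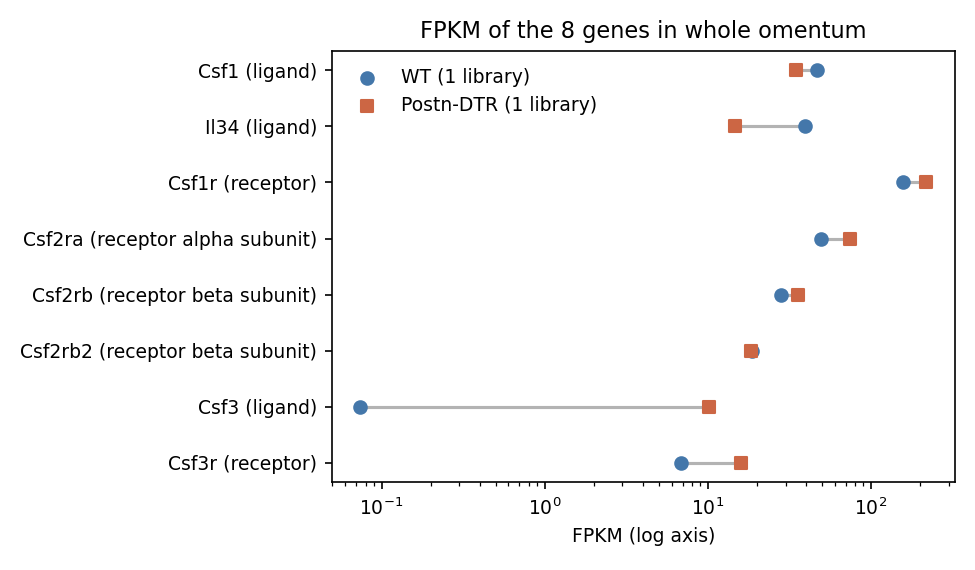
FPKM of each CSF gene (log axis) in the WT library (circles) and the Postn-DTR library (squares), 1 library per genotype, with a line joining the values of a gene. Csf3 spans the widest distance, from 0.0739 to 10.1, and Il34 is the ligand that lies farthest to the left of its WT value.

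The libraries themselves differed in ways that bear on these counts. Deposited FPKM summed to 542190 in the WT library and 671882 in the Postn-DTR library. Genes of pancreatic acinar cells, which belong to the neighbouring organ, made up 2.40% of the WT sum and 0.00322% of the Postn-DTR sum. When those genes were removed and both libraries were brought to the same total, the median change over all genes shifted by -0.30, and the share of called genes that were higher went from 55.4% to 27.96%. Each CSF gene kept its sign under that scaling, with Csf2rb at 0.0041. Markers of the labelled tissue were high in both libraries, with the adipocyte gene Adipoq at 955 and 636 FPKM and the mesothelial gene Upk3b at 212 and 182 FPKM. Postn, the targeted gene, was at 58.3 FPKM in the WT library and 16.2 FPKM in the Postn-DTR library.

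The ligands of CSF1R were both below their WT level in the Postn-DTR library, and only Il34 passed the 2-fold limit. Il34 (chr8:110741829-110805924, minus strand, GRCm38, ENSMUSG00000031750) encodes the CSF1R ligand known from keratinocytes and neurons. It stood at 39.5 FPKM in WT and 14.6 in Postn-DTR. That is 2.70-fold lower, or -1.37 on the log2(FPKM + 1) scale. Of the genes compared, 1.48% had a more negative change. Across the 5 alternative ways of computing it, the change ran from -1.70 to -1.18, so the call did not depend on the scaling.

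Csf1 (chr3:107741048-107760469, minus strand, ENSMUSG00000014599) encodes M-CSF, the principal macrophage growth factor. Its level was 46.7 FPKM in WT and 34.8 in Postn-DTR, 1.34-fold lower, with a change of -0.41 that stayed inside the 2-fold limits. With acinar genes removed and totals made equal, the change was -0.75. Levels per length allow the ligands to be set side by side within a library. Csf1 was 1.18 times Il34 in WT and 2.38 times Il34 in Postn-DTR. The summed FPKM of both went from 86.2 to 49.5, and the share of Il34 in that sum went from 45.8% to 29.6%.

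Several markers of stromal cells were lower alongside both ligands. Of 8 fibroblast and FRC markers, 4 were called lower and none higher, their median change was -0.82, and their summed FPKM was 978 in WT and 581 in Postn-DTR. Among the 4 was Postn, the targeted gene, so its call adds little to the count. It also enters the median and the sum. Dpt, which encodes the matrix protein dermatopontin, was at 237 and 67.3 FPKM. Ccl19, the chemokine of lymphoid stroma, was at 61.1 and 17.8 FPKM. Pdgfrb, the PDGF receptor of mural and fibroblastic cells, was at 41.3 and 17.3 FPKM. Aldh1a2, the gene that names the FRCs the line was made to remove, stayed within 2-fold at 85.5 and 63.3 FPKM. The paper cites earlier reports of Aldh1a2 in omental mesothelial cells and fibroblasts. Its flow cytometry, done sooner after DT, found these FRCs largely lost. Pdgfra, at 25.96 and 29.2 FPKM, and Pdpn, which encodes podoplanin, at 46.6 and 57.1 FPKM, were on the other side of 0, although with equal totals they were at -0.17 and -0.05. None of the 8 was at 0 in either library. Of 6 adipocyte markers, 5 were below 0, the median change was -0.48 (-0.83 with equal totals), and Pparg, the adipocyte nuclear receptor, was the only one called lower, at 59.1 and 27.3 FPKM. Plin1, which coats lipid droplets, was at 321 and 189 FPKM. The summed level was 14001 in WT and 13368 in Postn-DTR, most of it from Cfd and from Fabp4, which was at 4879 and 6519 FPKM. The part of these cells in the levels of Csf1 and Il34 was not tested.

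Csf1r (chr18:61100598-61132149, plus strand, ENSMUSG00000024621) encodes the shared receptor of CSF1 and IL-34 and had the highest level of the 8 genes in both libraries. It was at 158 FPKM in WT and 219 in Postn-DTR, 1.38-fold higher. The change of 0.47 was within 2-fold, and with equal totals it was 0.12. Receptor and ligands thus lay on opposite sides of 0 under each of the scalings tried. Csf1r was 3.39 times Csf1 in WT and 6.29 times Csf1 in Postn-DTR. The summed ligand FPKM per FPKM of receptor was 0.545 in WT and 0.226 in Postn-DTR, a 2.41-fold lower value that does not depend on how the libraries are scaled to each other.

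Most macrophage markers were higher by more than Csf1r was. All 12 were compared, 5 were called higher and none lower, their median change was 0.89, and their summed FPKM was 2955 in WT and 4911 in Postn-DTR. Cd14, a co-receptor for lipopolysaccharide, was at 33.6 and 230 FPKM. Itgam, the CD11b integrin chain, was at 46.8 and 252 FPKM. Adgre1, which encodes F4/80, was at 41.1 and 138 FPKM, and Cd68, a lysosomal glycoprotein, was at 114 and 369 FPKM. None of the 12 was at 0 in either library.

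Divided by each of the 12 markers, Csf1r was lower in the Postn-DTR library for 10 and higher for 2, and the median of the ratio between libraries was 0.730. The ratio of Csf1r to Adgre1 was 3.85 in WT and 1.59 in Postn-DTR. The ratio to Itgam was 3.38 in WT and 0.870 in Postn-DTR, so that Itgam passed Csf1r in level. Against Mrc1, the mannose receptor, and Lyz2, the lysozyme of myeloid cells, Csf1r nearly kept its proportion, at 0.935 and 0.955 of the WT ratio. The markers for which it was higher were the phosphatidylserine receptor gene Timd4, at 1.04 times the WT ratio, and Lyve1, a hyaluronan receptor gene of resident macrophages and lymphatic endothelium, at 1.58 times.

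**Figure D2:**
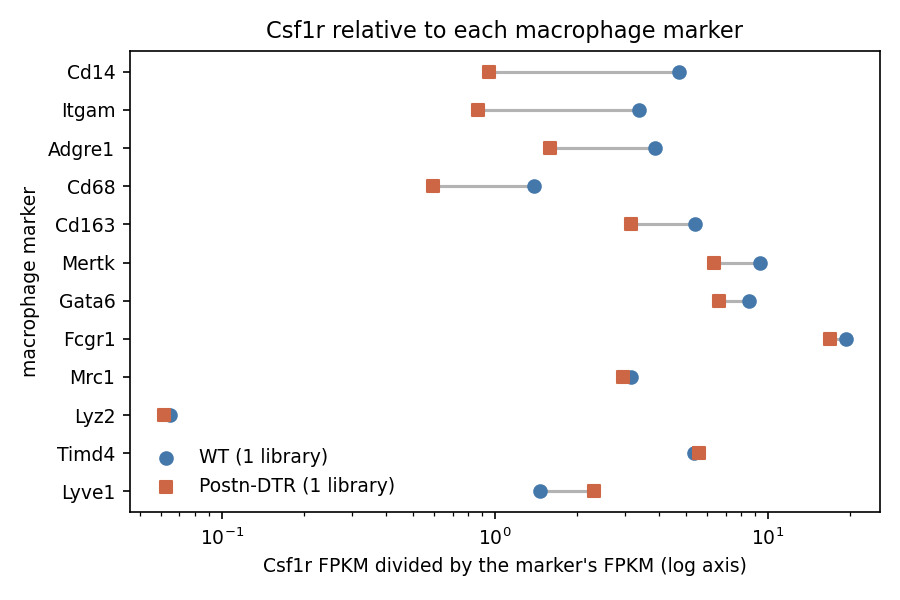
Csf1r FPKM divided by the FPKM of each of 12 macrophage markers (log axis) in the WT library (circles) and the Postn-DTR library (squares), sorted by the ratio between libraries. The Postn-DTR value lies to the left for 10 markers, farthest for Cd14 at 0.202 of the WT ratio, and to the right for Timd4 and Lyve1.

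Monocytes also use Csf1r, and their markers went in both directions. Of 6, 2 were called higher and 2 lower. Chil3, which encodes the lectin Ym1, was at 12.1 FPKM in WT and 170 in Postn-DTR, and Ly6c2, a surface antigen of classical monocytes, was at 50.9 and 150 FPKM. Ccr2, the chemokine receptor that classical monocytes need to leave the bone marrow, was at 39.6 and 16.4 FPKM, and Ms4a4c was at 8.12 and 3.08 FPKM. Classical monocyte markers therefore did not move as a block beside Csf1r, and their part in its level was not tested.

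Of the genes downstream of CSF1R, 11 were compared, 1 was called higher and none lower, and the median change was 0.06. It turned to -0.28 with equal totals. The gene called higher was Tyrobp, which encodes the adaptor DAP12 and was at 357 FPKM in WT and 853 in Postn-DTR. Akt1, a survival kinase, was at 84.4 and 122 FPKM. Pik3r1, a regulatory subunit of phosphoinositide 3-kinase, was at 39.0 and 23.2 FPKM. Syk, the kinase that binds DAP12, was at 46.5 and 48.6 FPKM, so the kinase stayed near its WT level where the adaptor did not.

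GM-CSF itself was barely present as RNA. Csf2, which was not among the 8 genes, was at 0.310 FPKM in WT and 0.349 in Postn-DTR. The smallest whole numbers that fit the ratio of these values are 6 and 7 fragments, and the transcript length gave about 4.3 and 5.1. A difference between the libraries was therefore not detectable at this depth. Il3 was listed at 0 in both. Il5, the eosinophil cytokine that signals through the same beta chain, was at 0.161 and 0.187 FPKM. The receptor subunits were plentiful where the cytokines were not.

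Csf2ra (chr19:61223957-61228429, minus strand, ENSMUSG00000059326) encodes the GM-CSF binding chain. It was at 49.2 FPKM in WT and 74.9 in Postn-DTR, 1.52-fold higher, with a change of 0.60 that was 0.26 with equal totals. Csf2rb (chr15:78325752-78353847, plus strand, ENSMUSG00000071713) encodes the common beta chain, which carries the signal of GM-CSF, IL-3 and IL-5. It was at 28.1 and 35.8 FPKM, 1.27-fold higher, and its change of 0.34 fell to 0.0041 with equal totals. Csf2rb2 (chr15:78282507-78305721, minus strand, ENSMUSG00000071714) encodes the beta chain specific to IL-3. It was at 18.5 and 18.4 FPKM, with a change of -0.01, the smallest of the 8.

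Relative to the alpha chain, both beta chains were lower in the Postn-DTR library. Csf2rb was 0.572 of Csf2ra in WT and 0.478 in Postn-DTR, and the beta chains summed were 0.949 of Csf2ra in WT and 0.723 in Postn-DTR. Csf2rb2 supplied 39.7% of the summed beta chain FPKM in WT and 33.9% in Postn-DTR. The alpha chains that pair with the common beta chain for other cytokines stayed within 2-fold. Il3ra was at 25.8 and 29.0 FPKM, and Il5ra, the IL-5 receptor chain of eosinophils and B1 cells, was at 3.69 and 6.29 FPKM. Of 4 eosinophil markers, 3 did not pass the filter on low values, among them Siglecf at 0.0584 and 0.207 FPKM and Epx, eosinophil peroxidase, at 0.0862 and 0.0333 FPKM. The only marker compared was the granule protein gene Prg2, at 8.30 and 9.26 FPKM. Its change of 0.14 turned to -0.17 with equal totals.

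The split of reads between the beta chain genes is uncertain. They lie 20.0 kb apart in opposite orientation, and their coding sequences (2688 and 2634 bases in GENCODE M21) were identical at 95.2% of 2628 aligned positions. Of all runs of 50 bases in Csf2rb, 26.2% also occurred in Csf2rb2, and the longest identical run was 242 bases. A stretch of 60 bases from that run is shown first, because a fragment inside it cannot be assigned to one gene, and the stretch with the most differences follows, with capitals at the 13 positions at which the genes differ.
Csf2rb, shared stretch, chr15:78348577-78348636, plus strand: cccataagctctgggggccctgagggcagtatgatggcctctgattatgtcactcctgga
Csf2rb2, shared stretch, chr15:78284812-78284871, minus strand: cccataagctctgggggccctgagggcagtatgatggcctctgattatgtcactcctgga
Csf2rb, distinct stretch, chr15:78338893-78338952, plus strand: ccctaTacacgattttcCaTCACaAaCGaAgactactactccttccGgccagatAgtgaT
Csf2rb2, distinct stretch, chr15:78294379-78294438, minus strand: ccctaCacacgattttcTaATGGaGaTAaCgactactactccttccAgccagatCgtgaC

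These are exonic coding bases read in the direction of transcription from GRCm38. How the quantification divided fragments that match both genes is not given in the sources used here, so the separate levels of the beta chain genes are uncertain. Their sum was 46.7 FPKM in WT and 54.2 in Postn-DTR, and how far it rests on that handling was not tested.

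Csf3 showed the widest difference of the 8 genes. Csf3 (chr11:98701263-98703629, plus strand, ENSMUSG00000038067) encodes G-CSF, the cytokine that drives neutrophil production and release. It was at 0.0739 FPKM in WT and 10.1 in Postn-DTR. The change was 3.38, and 30 of the 13127 genes compared had a higher one. The WT value corresponds to about 2 fragments and the Postn-DTR value to about 284. The FPKM ratio was 137, with a 95% interval of 37.7 to 1139 that covers counting error only. The WT number is an estimate from the steps between low FPKM values and the annotated transcript length. The Postn-DTR number was scaled from the WT number by the FPKM ratio and the estimated depth ratio. Estimated from length as the WT number was, it would be about 297. The size of the change depended on the pseudocount, from 1.58 with 5 FPKM added to 5.88 with 0.1 FPKM added, and it was past 2-fold under all 5 alternatives.

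Csf3r (chr4:126024550-126044440, plus strand, ENSMUSG00000028859) encodes the G-CSF receptor of neutrophils and their precursors. It was at 6.87 FPKM in WT and 15.9 in Postn-DTR, 2.31-fold higher, with a change of 1.101. The call was lost with equal totals, at 0.79, and with 5 FPKM added, at 0.82. Receptor RNA was 92.9 times ligand RNA in WT and 1.56 times in Postn-DTR, so the gap between them was narrower in the second library. Csf3r was 0.0434 of Csf1r in WT and 0.0725 in Postn-DTR.

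Neutrophil markers split into opposite groups. Of 12, Ly6g was not listed. Of the 11 compared, 3 were called higher and 5 lower, and the median change was -0.24. The summed FPKM was 471 in WT and 721 in Postn-DTR, most of it from S100a8 and S100a9, and none of the 11 was at 0. The 3 called higher were Retnlg, Mmp8 and Cxcr2. Cxcr2 passed the filter on low values only through the Postn-DTR library, and Mpo only through the WT library. Retnlg, a resistin-like gene, was at 12.8 and 72.6 FPKM, Mmp8, a collagenase, was at 1.32 and 6.82 FPKM, and Cxcr2, the chemokine receptor used to leave the marrow, was at 0.514 and 4.03 FPKM. The 5 called lower encode granule proteins made by neutrophil precursors.

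Among those 5, Ngp was at 48.0 FPKM in WT and 13.2 in Postn-DTR, Camp, the cathelicidin gene, was at 33.1 and 8.98 FPKM, and Ltf, which encodes lactoferrin, was at 12.4 and 1.98 FPKM. Elane, neutrophil elastase, was at 5.86 and 1.85 FPKM, and Mpo, myeloperoxidase, was at 3.84 and 0.726 FPKM. S100a8, an alarmin of neutrophils and monocytes, lay just inside the limit at 170 and 339 FPKM. Mmp9 was also within 2-fold, at 27.2 and 22.9 FPKM. Divided by each marker, Csf3r was higher in the Postn-DTR library for 8 of 11 and lower for the 3 markers called higher. Its ratio to Cxcr2 was 13.4 in WT and 3.94 in Postn-DTR, and its ratio to Ltf was 0.553 in WT and 8.03 in Postn-DTR. The part of neutrophils in the level of Csf3r was not tested.

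**Figure D3:**
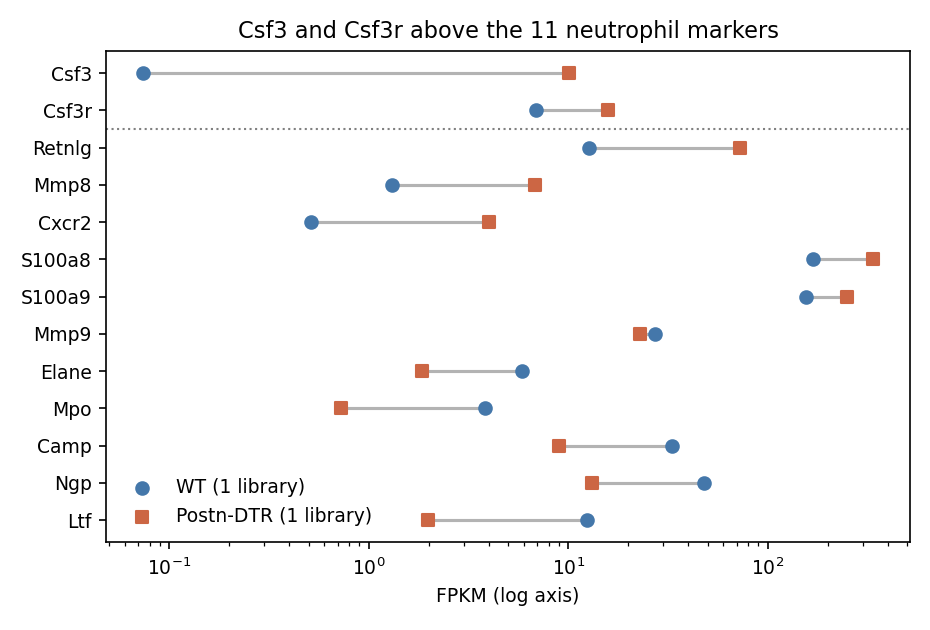
FPKM (log axis) of Csf3 and Csf3r, above the dotted line, and of 11 neutrophil markers in the WT library (circles) and the Postn-DTR library (squares). Retnlg, Mmp8 and Cxcr2 lie to the right of their WT values as Csf3r does, and Elane, Mpo, Camp, Ngp and Ltf lie to the left.

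Some genes tied to the induction of Csf3 were higher in the same library. Of 11 inducers and their receptors or adaptors, 9 were compared, and 4 were called higher and none lower. The median change was 0.63, or 0.29 with equal totals. Among the 4, Il6 and Il1a passed the filter on low values only through the Postn-DTR library, so their calls add little to the count. Il6 was at 0.436 FPKM in WT and 5.58 in Postn-DTR. Il1b was at 1.87 and 8.19 FPKM, Il1a was at 0.412 and 3.21 FPKM, and Nfkbiz, which encodes a nuclear cofactor of NF-kappaB, was at 10.6 and 32.0 FPKM. Like Csf3, the gene Il6 was close to absent in WT. Tnf was on the other side of 0, at 3.76 and 2.26 FPKM. Il17a, the lymphocyte cytokine that acts on stroma to raise G-CSF, was listed at 0 in both. The part of these genes in the level of Csf3 was not tested.

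G-CSF and GM-CSF receptors signal through JAK kinases and STAT factors. All 14 genes listed for that pathway were compared, 2 were called higher and none lower, and the median change was 0.11, which turned to -0.22 with equal totals. Socs3, the feedback inhibitor that binds CSF3R and the IL-6 receptor chain, was at 17.8 FPKM in WT and 143 in Postn-DTR, 8.07-fold higher. Pim1, a kinase gene induced by STAT3 and STAT5, was at 29.8 and 80.1 FPKM. Stat3, which carries the G-CSF signal, stayed within 2-fold at 66.5 and 110 FPKM, with a change of 0.72 that was 0.38 with equal totals. Genes tied to GM-CSF also stayed within 2-fold, with Stat5a at 18.8 and 13.9 FPKM, Stat5b at 19.1 and 15.7 FPKM, and Cish at 11.1 and 15.3 FPKM. Pim1, as a target of STAT3 and STAT5, belongs to neither receptor alone. The part of either receptor in these levels was not tested.

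Transcription factors that regulate myeloid genes, among them CSF receptors, were compared next. Of 12, 11 were compared, 2 were called higher and none lower, and the median change was 0.45. Cebpd was at 15.9 FPKM in WT and 68.2 in Postn-DTR, and Cebpb, which takes part in emergency granulopoiesis, was at 39.0 and 110 FPKM. Spi1, which encodes PU.1 and is known to drive several CSF receptor genes, was at 60.5 and 122 FPKM, and its change of 0.999 fell just short of the limit. Irf8, a factor of monocytes and dendritic cells, was at 51.1 and 35.2 FPKM.

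Since PU.1 is known to act on CSF receptor genes, promoters were searched for GAGGAAG, a core of PU.1 and related ETS factor sites. The search covered both strands in the 250 bases before the transcription start. RefSeq (GRCm38.p6) promoters were searched for 4 of the 8 genes, Csf1, Csf2ra, Csf2rb2 and Csf3r. The core was found in 3 of these 4, beside 10.6% of 32851 promoters of the same length, and Csf1 had no match. The remaining CSF genes were not searched, so whether their promoters hold the core is not known here. Each site is printed with 30 bases in the direction of transcription and the core in capitals.
Csf2ra, chr19:61228419-61228448, minus strand: ttcccaacctgcagatGAGGAAGAGGAAGc
Csf2rb2, chr15:78305871-78305900, minus strand: ctctgtgtctgCTTCCTCcagagaagtcag
Csf3r, chr4:126024562-126024591, plus strand: ctccttcctgaGAGGAAGgggctgtctatg

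In Csf2ra the core occurs at bases -14 to -8 and again at -8 to -2 before the start, with 1 base in common. In Csf2rb2 it lies on the opposite strand at -168 to -162, and in Csf3r at -86 to -80. The same windows were searched for other patterns. TTGCNNAA, a C/EBP pattern held by 9.56% of promoters, was in none of the 4, and TTCNNNGAA, a STAT pattern held by 7.02%, was in Csf2rb2 alone. The genes with the PU.1 core had changes of 0.60, -0.01 and 1.101, so they did not move together. The printed sites of Csf2ra and Csf3r reach into those genes as GENCODE draws them, since the RefSeq starts lie farther downstream. A match is a string of letters in these windows and not a measured binding site.

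Other growth factor systems of blood cells were set beside the CSF genes. Of 12 such ligands and receptors, 10 were compared, none was called higher and 1 lower, and the median change was -0.04. The lower gene was Flt3, the receptor of dendritic cell precursors, at 6.56 FPKM in WT and 1.49 in Postn-DTR, and its ligand Flt3l was at 23.3 and 15.2 FPKM. Crlf2, the receptor of TSLP, was at 28.01 and 50.3 FPKM. Kitl, stem cell factor, was at 10.04 and 6.91 FPKM, and its receptor gene Kit was at 3.91 and 4.61 FPKM. Both genes of the FLT3 pair were below their WT level. In the KIT pair the ligand was below and the receptor above it, except that with equal totals Kit was at -0.08.

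**Figure D4:**
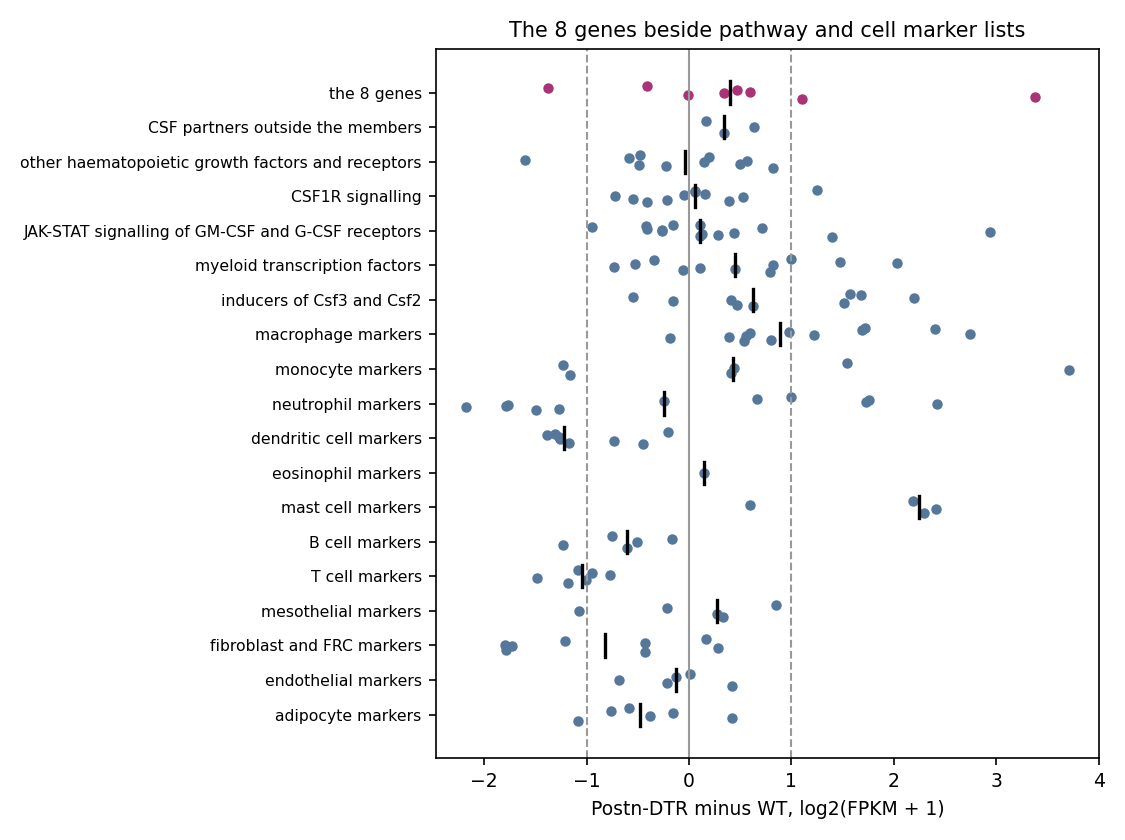
Postn-DTR less WT on the log2(FPKM + 1) scale for each gene compared (points), for the 8 CSF genes at the top and for each pathway or cell marker list below, with the list median as a black bar and dashed lines at 2-fold. The CSF genes run from -1.37 (Il34) to 3.38 (Csf3), and the macrophage list lies mostly to the right of 0 while the dendritic cell and T cell lists lie to the left.

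Within each library, the levels per length fell in an order that could be read but not tested. In WT it was Csf1r, Csf2ra, Csf1, Il34, Csf2rb, Csf2rb2, Csf3r and Csf3. In Postn-DTR it was Csf1r, Csf2ra, Csf2rb, Csf1, Csf2rb2, Csf3r, Il34 and Csf3. Il34 went from the fourth place to the seventh. No spread could be measured, so whether neighbours such as Csf2rb at 35.8 FPKM and Csf1 at 34.8 FPKM differ cannot be said.

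**Figure D5:**
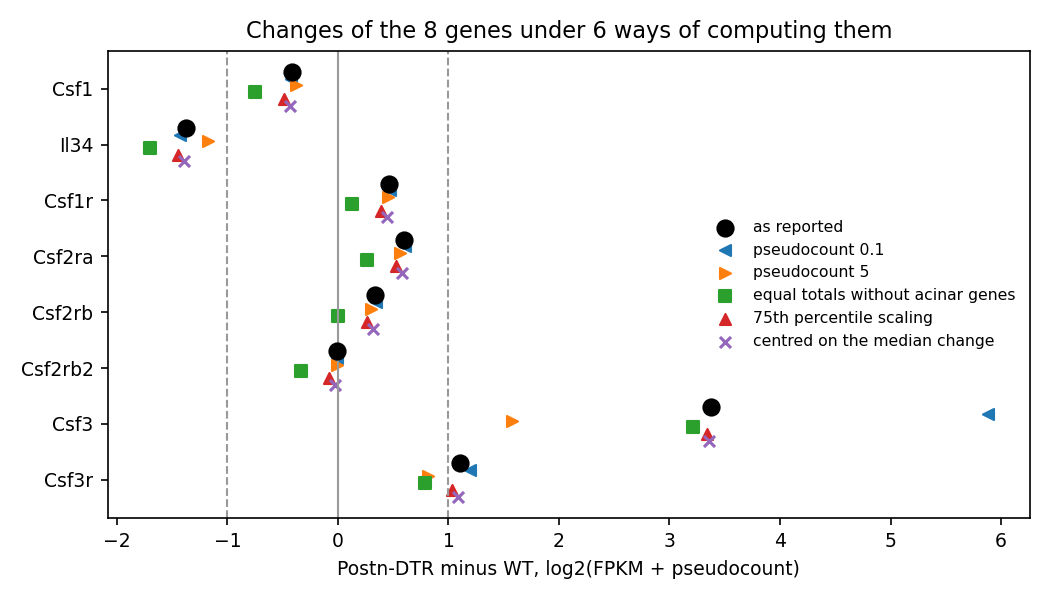
Change of each CSF gene as reported (black) and under 5 alternatives (other symbols), on the scale of log2(FPKM + pseudocount), Postn-DTR minus WT, with dashed lines at 2-fold. Il34 stays below -1 and Csf3 above 1 throughout, Csf3r crosses the line at 1, and Csf2rb reaches 0.0041 with equal totals.

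The genes whose levels in both libraries lay nearest to those of each CSF gene, by Euclidean distance on the log2(FPKM + 1) scale over 2 libraries, were found among all genes compared. For Il34 they were Prkar2b, Lgals12 and Cyp4b1, with Lgals12 at 40.3 and 15.1 FPKM. For Csf1 they were 1810011O10Rik, Mbnl1 and Lum, the lumican gene of fibroblasts, at 48.2 and 35.1 FPKM. For Csf2ra they included the macrophage marker Mrc1, at 50.3 and 74.5 FPKM, after C1qbp and Plod3. For Csf3r they were Ch25h, Abcg1 and Irs2, with the cholesterol hydroxylase gene Ch25h at 6.90 and 16.2 FPKM. Csf1r was nearest to Dazap2, Tmem258 and Ndufa2, Csf2rb to Rab6a, Glrx and Ccz1, and Csf2rb2 to Ppp2r2a, Uckl1 and Gpbp1l1. Csf3 was nearest to Snora24, Mir142b and Mir6240, small RNA genes listed at 0 in WT. With 2 libraries, such nearness describes a pair of levels and nothing more.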

How the data were processed

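Total RNA of each omentum library (WT, Postn-DTR) was isolated with a miRNeasy kit and made into libraries with a stranded TruSeq mRNA kit. The authors deposited FPKM per gene symbol. The submitters' processing notes name TopHat2 2.1.1, Bowtie2 2.2.8, SAMtools 0.1.18, Cuffdiff 2.2.1 and build mm10, without their settings. Sequencing depth is not given in the sources used here. It was estimated from the steps between low FPKM values, by which 1 FPKM in a 2 kb transcript stands for about 41.8 fragments in WT and 43.3 in Postn-DTR. The estimate is approximate, since 76.8% and 77.6% of low values came out within 0.1 of a whole number.

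Changes were computed with pandas 2.3.3 and numpy 2.4.6 as differences of log2(FPKM + 1), which understate those of low genes, for genes whose FPKM averaged 1 or more. No test was run. The computation was checked on simulated data. Positions came from GENCODE M21 and promoters from RefSeq, both on GRCm38, and the annotation behind the FPKM may differ. Sequences were aligned with biopython 1.88. The members and lists were chosen with earlier results of these data known. The text names each CSF gene, their partners, Postn, the highest or most changed genes of each list and the 3 nearest genes, and 1 gene of a list is not reported here. Alternatives were other pseudocounts, scalings, filters and fold limits.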

Additional observations from a re-analysis of the deposited data

How the results depend on the processing

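Csf3 and Csf3r were called higher. The count of such genes was 1 with a pseudocount of 5, with acinar genes removed and totals made equal, when FPKM had to average 10 or more, and with a 3-fold limit. Over all genes compared, those settings called 2.19%, 2.32%, 4.204% and 1.52% higher. Csf3r was the gene lost with the pseudocount of 5 and with equal totals, and Csf3 was the one dropped by the stricter filter. The count called lower, Il34 alone, was 0 with the 3-fold limit, under which 1.17% of all genes were lower. It stayed at 1 with equal totals, where 5.99% of all genes were lower. The pseudocount of 0.1, scaling to the 75th percentile, centring on the median change, no filter and the 1.5-fold limit left both counts within 1.5 times of those reported. No CSF gene changed sign under the 5 alternatives run for single genes. Further list medians near 0 took the other sign beside those given above, namely other blood growth factors without a filter (0.047) or with FPKM averaging 10 or more (0.12), neutrophil markers at that filter (0.21), CSF1R signalling with 75th percentile scaling (-0.01), and, with equal totals, mesothelial markers (-0.06) and the single eosinophil marker compared. No paired analysis was possible because each genotype had 1 library and the labels carry no replicate number. Depth limits Csf2, Il5 and the WT value of Csf3.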

Other observations

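Markers of some other cell types were not described above. All 8 dendritic cell markers were below 0, 5 were called lower, and the median change was -1.22. Clec9a, a receptor of cross-presenting dendritic cells, was at 5.85 FPKM in WT and 1.62 in Postn-DTR, and Xcr1, the chemokine receptor of the same cells, was at 2.77 and 0.517 FPKM. Xcr1 passed the filter on low values only through the WT library, so its call adds little to the count. The median stayed below 0 in each alternative run and was -0.60 with a pseudocount of 5. Of 5 mast cell markers, 4 were compared and 3 of them were called higher, with the protease genes Cpa3 at 10.7 and 52.5 FPKM, Tpsb2 at 18.02 and 99.97 FPKM, and Cma1 at 16.5 and 84.8 FPKM. Of 6 T cell markers, 4 were called lower (median change -1.04), and of 5 B cell markers, 1 was called lower with a median change of -0.61. Among those 4, Cd8a, at 2.81 and 0.897 FPKM, passed the filter on low values only through the WT library. The 5 endothelial markers stayed within 2-fold with a median change of -0.13.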
